A study of Mus musculus with 12 samples.

Results

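Coenzyme Q is the lipid quinone that carries electrons from the dehydrogenases of the inner mitochondrial membrane to complex III, and in its reduced form it also protects membranes from lipid peroxidation. A polyprenyl diphosphate synthase builds its tail, COQ2 joins the tail to the ring precursor, and a complex of COQ3 to COQ9 proteins then modifies the ring. COQ10 proteins are not needed to make the molecule; in yeast, the COQ10 protein binds coenzyme Q and is needed for its efficient use in respiration, and mouse has a pair of genes for it, Coq10a and Coq10b.

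The genes described here are Coq10b, Coq10a and the coenzyme Q synthesis genes Pdss1, Coq2, Coq3, Coq4, Coq5, Coq6, Coq7 and Coq9, taken by exact gene symbol of the platform annotation. Of these 10 genes, 9 had a probe set naming that gene alone, out of 22180 genes measured in that way, and each of the 9 had 1 such probe set. Pdss1 was not analysed here. Coq10b was singled out because its level differed between the groups described next, so its difference, and every value of the other genes in that same comparison, is a description and not a test.

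Aortic tissue was taken from 12 female mice of the outbred CD-1 stock; their age and the hour of collection are not stated. The CM-695 group (6 mice) received 80 mg/kg of CM-695, an inhibitor of both histone deacetylase 6 and phosphodiesterase 9, by intraperitoneal injection 2 h and again 1 h before sacrifice. The vehicle group (6 mice) received saline, recorded in the series design as 1 injection, so the groups may also differ in the number of injections. All mice were perfused with buffered saline, and RNA of each mouse was read on its own Affymetrix array.

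All values below are RMA log2 values, on which a difference of 1 is a doubling of signal, and they carry no detection call. Probe sets differ in brightness, so levels were compared between mice and not between genes. The median of an array was 4.69 to 4.74, and any 2 arrays correlated at 0.957 to 0.977 over all probe sets. All 8 smooth muscle markers exceeded every array median on average, and so did 8 of 8 brown fat markers and 12 of 13 heart muscle markers. The samples are therefore read as holding transcripts of fat and heart beside those of the vessel wall. These counts alone are weak ground, since 12978 of 22180 genes were brighter than the median probe set. Of the liver markers, 3 of 5 also exceeded every array median. In such bulk samples, fewer cells of a type and less RNA per cell cannot be told apart.

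The promoter of Coq10b is shown with those of Coq10a and Coq4, because Coq10a is its paralogue and Coq4 shares a motif with it. Each sequence holds the 250 bases before the RefSeq transcription start in the GRCm38.p6 build, 5′ to 3′ on the strand of the gene, and Coq10a has a window for each of its annotated starts. Capitals mark matches to CACGTG, the E-box bound by CLOCK and BMAL1, and to TTATGTAA or its reverse complement, the D-box bound by DBP and its relatives.
Coq10b (chr1:55052520-55052769, plus strand): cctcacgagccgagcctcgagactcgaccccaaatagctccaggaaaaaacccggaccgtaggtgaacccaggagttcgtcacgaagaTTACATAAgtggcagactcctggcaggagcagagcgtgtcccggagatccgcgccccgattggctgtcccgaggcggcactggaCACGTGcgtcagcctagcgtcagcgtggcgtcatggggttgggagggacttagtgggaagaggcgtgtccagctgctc
Coq10a, first window (chr10:128370038-128370287, minus strand): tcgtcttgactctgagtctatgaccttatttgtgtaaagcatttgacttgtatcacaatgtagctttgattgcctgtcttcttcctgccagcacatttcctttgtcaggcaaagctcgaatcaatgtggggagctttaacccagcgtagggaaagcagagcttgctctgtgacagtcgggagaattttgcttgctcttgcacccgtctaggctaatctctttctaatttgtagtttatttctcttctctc
Coq10a, second window (chr10:128368981-128369230, minus strand): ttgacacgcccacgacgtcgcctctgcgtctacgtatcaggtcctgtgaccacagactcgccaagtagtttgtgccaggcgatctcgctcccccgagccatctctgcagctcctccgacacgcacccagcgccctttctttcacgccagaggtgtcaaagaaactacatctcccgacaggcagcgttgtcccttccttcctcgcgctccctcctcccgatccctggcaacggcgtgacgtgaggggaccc
Coq4 (chr2:29787243-29787492, plus strand): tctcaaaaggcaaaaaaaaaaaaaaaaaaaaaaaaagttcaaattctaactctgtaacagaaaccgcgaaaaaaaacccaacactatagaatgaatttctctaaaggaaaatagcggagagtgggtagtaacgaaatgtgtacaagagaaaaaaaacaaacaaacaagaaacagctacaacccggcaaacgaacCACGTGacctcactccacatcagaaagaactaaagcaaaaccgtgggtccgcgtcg

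The Coq10b window held 1 E-box, at chr1:55052692-55052697, and 1 D-box, read as TTACATAA on the plus strand, at chr1:55052608-55052615. Of 10 windows of the 8 measured members with a RefSeq promoter, 2 held CACGTG, those of Coq10b and Coq4, and 1 held a D-box, that of Coq10b. Over the same 250 bases before 32851 RefSeq starts of all genes, 6.02% held CACGTG, 0.819% held TTATGTAA and 7 windows (0.0213%) held both.

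The Coq10b window also held 4 matches to TGACG, the core of the cyclic AMP response element, all on the minus strand, the first of them at chr1:55052597-55052601 and the next directly after the E-box. TGACG was found before 3 other members (Coq10a, Coq2 and Coq9) with at most 2 matches each; 17.8% of all windows held it, and 0.137% held 4 or more matches. The full element TGACGTCA (1.55% of windows), the heat shock element GAANNTTC (6.69%), the palindromic glucocorticoid response element (0.00913%), the REV-ERB and ROR element (0.177%), the NF-kB site (0.14%) and the other D-box form TTATGCAA (0.694%) had no match in the windows of the members. These 9 motifs were searched on both strands and were chosen with the expression results known, and a match is not evidence of binding.

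All CM-695 mice had less Coq10b signal than the lowest vehicle mouse. Its level ran from 6.98 to 7.48, with a median of 7.24, in the 6 CM-695 mice and from 8.08 to 8.26, with a median of 8.19, in the 6 vehicle mice. The groups were thus separated by a gap of 0.59 log2, wider than the whole range of either group. The CM-695 mean was 7.26 ± 0.18 and the vehicle mean 8.17 ± 0.067 (SD over 6 mice each). The difference was -0.91 (SE 0.095, 95% interval -1.12 to -0.71), which is a 1.88-fold lower signal. Complete separation with the treated mice below was seen in 0.636% of all genes.

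The spread of Coq10b was small in the vehicle group. Its vehicle SD of 0.067 was below that of all but 3.28% of the 12978 genes brighter than the median probe set, whose median vehicle SD was 0.18. After CM-695 its SD of 0.18 lay at the 45.4th percentile of the same genes. Coq10b was picked by a comparison that favours genes with a small spread within groups, so its rank by SD is a description. The difference in spread between the groups was not tested.

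**Figure D1:**
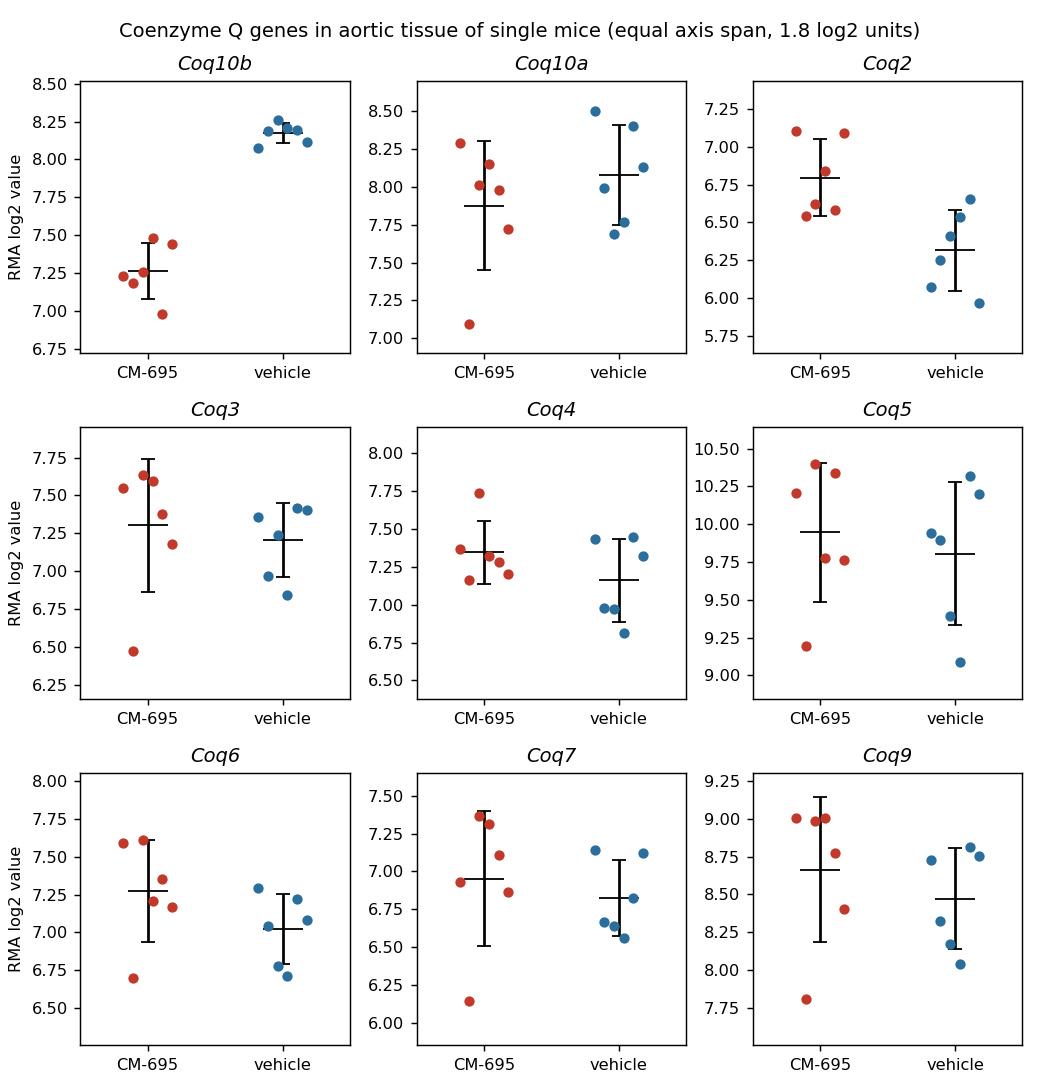
RMA log2 value (vertical axis, same span in every panel) of 9 coenzyme Q genes in each of 6 CM-695 mice (left, red) and 6 vehicle mice (right, blue); each point is 1 mouse, and bars give the mean and SD. The groups are apart in the Coq10b panel alone, where CM-695 mice reach at most 7.48 and vehicle mice start at 8.08; the lowest point of Coq10a, Coq3, Coq6, Coq7 and Coq9 is CM-695 mouse 2.

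Coq10a, the paralogue of Coq10b, overlapped between the groups. It ran from 7.10 to 8.29 (median 7.997) in CM-695 mice and from 7.69 to 8.50 (median 8.06) in vehicle mice. The difference was -0.21 (SE 0.20, 95% interval -0.64 to 0.23), and 1 CM-695 mouse, mouse 2 at 7.10, lay below the vehicle range. With 1 mouse left out at a time the difference ran from -0.29 (without CM-695 mouse 1) to -0.050 (without CM-695 mouse 2).

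Within each array, Coq10b minus Coq10a averaged -0.61 ± 0.44 in CM-695 mice and 0.093 ± 0.38 in vehicle mice (SD, n = 6 each). The CM-695 values ran from -1.06 to 0.088 and the vehicle values from -0.43 to 0.57, so the groups overlapped on this measure. The difference of -0.71 log2 (95% interval -1.24 to -0.17) had a wider interval than that of Coq10b alone.

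Among the synthesis enzymes, Coq2, which joins the polyprenyl tail to the ring precursor and so starts the assembly of the molecule, showed the largest difference, and it was upward. Coq2 ran from 6.54 to 7.10 (median 6.73) in CM-695 mice and from 5.96 to 6.65 (median 6.33) in vehicle mice, and 3 of 6 CM-695 mice lay above every vehicle mouse. The difference was 0.48 (SE 0.15, 95% interval 0.17 to 0.80), or 1.40-fold, and it was not among the calls of the fit over all probe sets.

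The ring-modifying enzymes overlapped between the groups. Coq6, a flavin-dependent hydroxylase of the ring, ran from 6.70 to 7.61 (median 7.28) in CM-695 mice and from 6.71 to 7.29 (median 7.06) in vehicle mice, a difference of 0.25 (SE 0.16). Coq7, the hydroxylase of a later step, ran from 6.14 to 7.37 (median 7.02) in CM-695 mice and from 6.56 to 7.14 (median 6.74) in vehicle mice, a difference of 0.13 (SE 0.19). For both hydroxylases the CM-695 range enclosed the whole vehicle range.

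Coq9, a lipid-binding protein that presents the substrate to COQ7, ran from 7.81 to 9.00 (median 8.88) in CM-695 mice and from 8.04 to 8.82 (median 8.53) in vehicle mice, a difference of 0.19 (SE 0.22). Coq3, which methylates oxygens of the ring, ran from 6.47 to 7.64 (median 7.46) in CM-695 mice and from 6.84 to 7.41 (median 7.30) in vehicle mice, a difference of 0.10 (SE 0.19). Coq5, which methylates a ring carbon, ran from 9.19 to 10.4 (median 9.99) in CM-695 mice and from 9.09 to 10.3 (median 9.92) in vehicle mice, a difference of 0.14 (SE 0.24). Neither methyltransferase separated the groups. Coq4, whose protein is part of the same enzyme complex, ran from 7.16 to 7.74 (median 7.30) in CM-695 mice and from 6.81 to 7.45 (median 7.15) in vehicle mice, a difference of 0.19 (SE 0.14). The 95% interval of each of these 6 enzymes includes 0. It was widest for Coq5, at -0.38 to 0.66 log2, and narrowest for Coq4, at -0.11 to 0.48. Without CM-695 mouse 2 the differences of these 6 enzymes ran from 0.22 (Coq4) to 0.36 (Coq6), and none was called.

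As a set, 7 of 7 measured synthesis enzymes had a difference above 0, with a median of 0.19 log2, against 55.3% of all 22180 genes above 0 and a median of 0.02. These enzymes vary together among mice, as given below, so the 7 directions are not separate observations. Averaged over the 7 enzymes, CM-695 mice were at 7.75 ± 0.33 and vehicle mice at 7.54 ± 0.23 (SD over 6 mice each), a difference of 0.21 (95% interval -0.15 to 0.57). Coq10b minus this mean was -0.85 to 0.039 in CM-695 mice and 0.37 to 0.98 in vehicle mice, without overlap, a difference of -1.12 (95% interval -1.54 to -0.71). This contrast holds the Coq10b difference that picked out the gene, so its separation is a description and no further evidence.

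In the fit over all probe sets (limma, Benjamini-Hochberg adjusted p under 0.05), 64 of 41345 probe sets (0.155%) and 37 of 22180 genes (0.167%) were called, and 1 of the 9 members, Coq10b, was among them, as 1 of 32 genes called lower (0.144%). Coq10b is a member because of that call, so nothing is read from the count. By p-value it ranked 9th of all genes, and by the size of the fall 22nd of the 32 genes called lower.

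**Figure D2:**
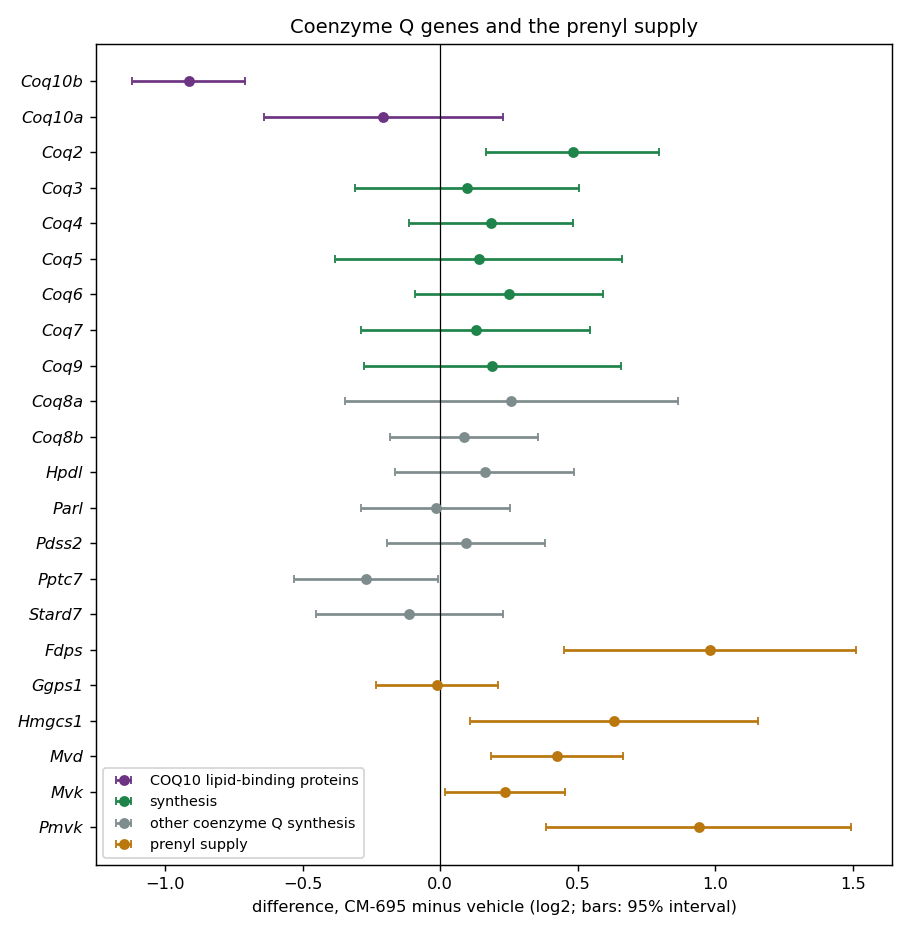
Difference CM-695 minus vehicle (horizontal axis, log2) with its 95% interval for each measured coenzyme Q gene and for the enzymes that supply its prenyl tail; colours give the gene list. Coq10b stands alone at -0.91, the synthesis enzymes lie between 0.10 and 0.48, and Fdps and Pmvk are farthest right at 0.98 and 0.94.

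The other genes of coenzyme Q synthesis were taken as a list of 9, of which 7 were measured. Of these, 0 rose and 0 fell in limma over all probe sets. The unadjusted p of 1 gene was below 0.05, as it was for 9.1% of all genes. That gene was Pptc7, a mitochondrial phosphatase whose yeast counterpart activates Coq7, at 6.79 ± 0.25 in CM-695 mice against 7.06 ± 0.15 in vehicle mice (SD over 6 mice each), a difference of -0.27 (SE 0.12, limma adjusted p = 0.528). Coq8a, an atypical kinase-like ATPase of the synthesis complex, differed by 0.26 (SE 0.28) and its relative Coq8b by 0.09 (SE 0.12).

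Pdss2, a subunit of the tail synthase, differed by 0.09 (SE 0.13) and Hpdl, which acts in the making of the ring precursor, by 0.16 (SE 0.15). The lipid transfer gene Stard7 and its protease gene Parl differed by -0.11 (SE 0.16) and -0.02 (SE 0.13). The list median was 0.09 log2, with 4 genes above 0 and 3 below.

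Mevalonate pathway enzymes supply the prenyl units of the tail and also feed cholesterol synthesis. Of 8 listed, 6 were measured, and 0 rose and 0 fell in limma over all probe sets. The unadjusted limma p was under 0.05 for 5, all above 0, as it was for 9.1% of all genes in either direction. Whether these genes vary together among mice was not tested, so the 5 are not counted as separate observations. The list mean of CM-695 mouse 3 was 7.98, against 7.33 to 7.47 in the other CM-695 mice. Fdps, which makes farnesyl diphosphate, ran from 7.36 to 8.59 in CM-695 mice and from 5.87 to 7.15 in vehicle mice, so its groups did not overlap, as in 0.442% of all genes with CM-695 above. Its difference was 0.98 (SE 0.25, limma adjusted p = 0.187). The groups did not overlap for Mvd of the same list either. Mvd ran from 5.98 to 6.65 in CM-695 mice and from 5.71 to 5.91 in vehicle mice, a difference of 0.43 (SE 0.11, limma adjusted p = 0.207). Pmvk, phosphomevalonate kinase, differed by 0.94 (SE 0.26, limma adjusted p = 0.237) and Hmgcs1, which makes the HMG-CoA used by the pathway, by 0.63 (SE 0.24, limma adjusted p = 0.45). Ggps1, which makes geranylgeranyl diphosphate, differed by -0.01 (SE 0.10). The list median was 0.53 log2.

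Genes that use coenzyme Q did not pass either. In limma over all probe sets, 0 of 10 dehydrogenases that reduce it, 0 of 6 complex I core subunits, 0 of 9 genes of complex III and cytochrome c and 0 of 4 quinone reductases outside the chain rose or fell, with list medians of 0.09, 0.06, 0.08 and 0.15 log2. Only 1 of these genes had an unadjusted p under 0.05, Prodh, the proline dehydrogenase that passes electrons to coenzyme Q, at -0.49 (SE 0.15, limma adjusted p = 0.315). Among the other dehydrogenases, Gpd2 of the glycerol phosphate shuttle differed by 0.29 (SE 0.25).

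Of 8 regulators of mitochondrial biogenesis, 0 rose and 0 fell in that fit and 0 reached an unadjusted p of 0.05. Their median difference was -0.02 log2. Ppargc1a, the coactivator PGC-1 alpha, was at 8.09 ± 0.52 in CM-695 mice against 8.54 ± 0.49 in vehicle mice (SD over 6 mice each; limma adjusted p = 0.63).

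The way the members vary among mice of 1 group does not enter the mean difference that picked out Coq10b, and it was tested. That comparison favours genes with a small spread within groups. The place of Coq10b in these correlations, and in those with the scores below, is thus not free of its selection. Group means were subtracted, and the remaining deviations of 12 mice were correlated, with 100000 permutations of mice within groups (two-sided) and Benjamini-Hochberg adjustment over the 36 pairs of members. Coq3, Coq4, Coq5, Coq6, Coq7 and Coq9 rose and dipped together from mouse to mouse. In 15 of 15 pairs of these 6 enzymes the adjusted permutation p was under 0.05, with Pearson r from 0.68 to 0.95, and Coq10a joined them in 6 of 6 pairs, most closely with Coq9 (r = 0.95, Spearman rho = 0.87, adjusted permutation p = 0.00432). Pairs of other genes were not tested, so this block is not shown to be particular to coenzyme Q genes.

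Coq10b and Coq2 stood outside that block. Coq10b passed in 0 of its 8 pairs, with r from -0.34 (Coq5) to 0.55 (Coq2; Spearman rho = 0.64, permutation p = 0.0657, adjusted p = 0.108). Against its paralogue Coq10a its r was -0.07 (Spearman rho = -0.22, adjusted permutation p = 0.975). Coq2 passed in 0 of 6 pairs with the other synthesis enzymes, with r from -0.24 to 0.10. Whether these correlations differ from those within the block was not tested.

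**Figure D3:**
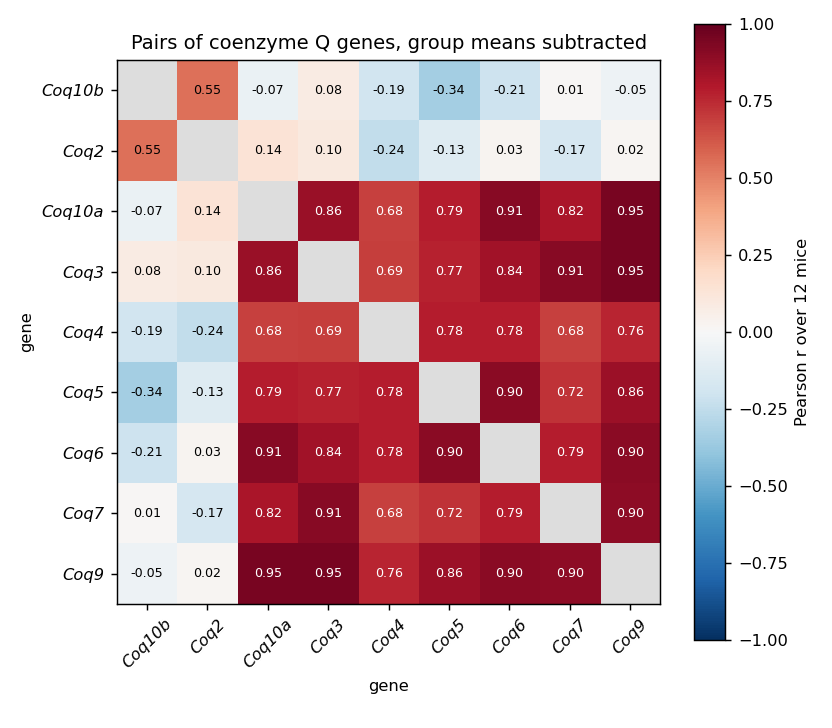
Pearson r over 12 mice (colour and number) for each pair of 9 coenzyme Q genes after group means were subtracted, so that the difference between CM-695 and vehicle does not enter. Coq10a, Coq3, Coq4, Coq5, Coq6, Coq7 and Coq9 form a block with r of 0.68 or more, and Coq10b and Coq2 do not belong to it.

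CM-695 mouse 2 carries part of this pattern. Without it, 11 of the 15 pairs of the 6 enzymes and 2 of the 7 pairs of Coq10a with a synthesis enzyme passed, while the median r of the 15 pairs was 0.79 both with and without that mouse. For Coq10b and for Coq2 with the other synthesis enzymes, 0 pairs passed without it too, but the values moved. The 6 r of Coq2 with the other synthesis enzymes were then all negative, from -0.73 (Coq7; permutation p = 0.024, adjusted p = 0.0618) to -0.30, with a median of -0.35 against -0.05 with that mouse. The 8 r of Coq10b then ran from -0.55 to 0.53, with a median of -0.26 against -0.06.

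The members were next set against 4 scores per mouse, each the mean of a gene list, again after group means were subtracted and adjusted over 36 relations. With the respiratory chain score (15 genes of complex I core, complex III and cytochrome c), Coq9 had r = 0.97 (Spearman rho = 0.81, adjusted permutation p = 0.00342) and Coq10a r = 0.95 (Spearman rho = 0.87, adjusted permutation p = 0.00234). In all, 7 of 9 members passed, Coq10a, Coq3, Coq4, Coq5, Coq6, Coq7 and Coq9, all positively, with r from 0.72 upward. The share of all genes that would pass with any of the 4 scores was not counted. These 7 members are thus not shown to differ from other genes in this respect. Within each group of 6 mice alone, Coq9 gave r = 0.97 after CM-695 (exact permutation p = 0.00833) and 0.96 after vehicle (exact permutation p = 0.025).

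The 2 members outside the block did not pass. Coq10b had r = -0.11 with the respiratory chain score (Spearman rho = -0.22, permutation p = 0.748) and Coq2 r = 0.0045 (permutation p = 0.989). These values near 0 rest on CM-695 mouse 2. Without it they were -0.41 for Coq10b (permutation p = 0.0732, adjusted p = 0.126) and -0.42 for Coq2 (permutation p = 0.242, adjusted p = 0.348). Within the vehicle group, where Coq10b covers a range of only 8.08 to 8.26, its r with that score was -0.83 (exact permutation p = 0.0347, not adjusted), and within the CM-695 group it was 0.08 (exact permutation p = 0.858). With the brown fat score its r was -0.94 within the vehicle group (exact permutation p = 0.00417, not adjusted) and 0.58 within the CM-695 group (exact permutation p = 0.226).

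The scores moved together from mouse to mouse. Over the same deviations the respiratory chain score correlated at 0.83 with the brown fat score (8 genes, among them the respiratory chain subunit genes Cox7a1 and Cox8b) and at -0.93 with the smooth muscle score (8 genes), so these scores are not separate evidence. The same 7 members passed with the smooth muscle score, all negatively, led by Coq6 (r = -0.92, Spearman rho = -0.85, adjusted permutation p = 0.00317), and 6 of them, all but Coq5, passed with the brown fat score, led by Coq10a (r = 0.85, Spearman rho = 0.74, adjusted permutation p = 0.00706). Coq10b passed with neither (r = 0.29 with smooth muscle and 0.34 with brown fat). Without CM-695 mouse 2 its r was 0.62 with smooth muscle (permutation p = 0.0451, adjusted p = 0.0903) and 0.30 with brown fat (adjusted permutation p = 0.562).

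**Figure D4:**
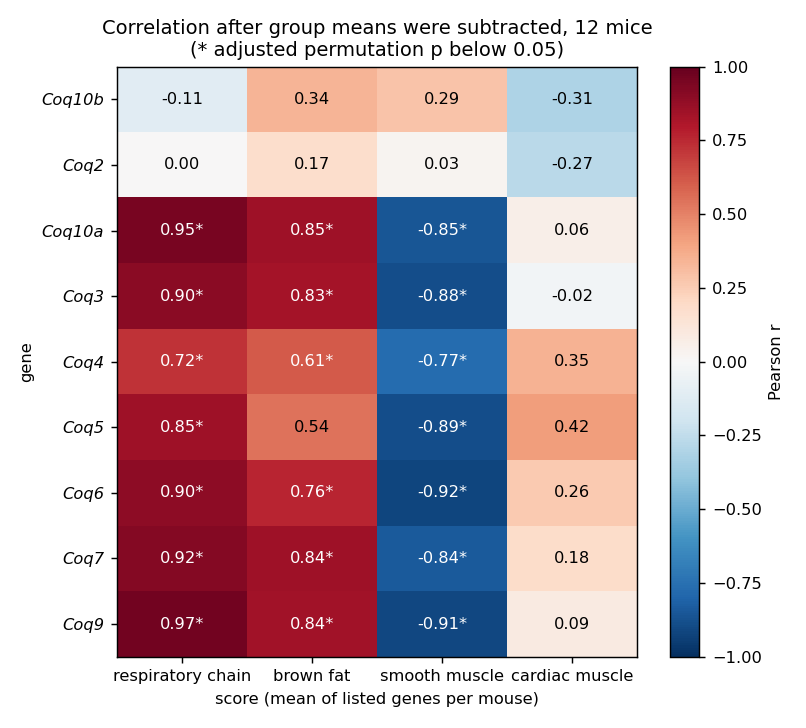
Pearson r over 12 mice, after group means were subtracted, of each coenzyme Q gene (rows) with the respiratory chain, brown fat, smooth muscle and cardiac muscle scores (columns); an asterisk marks an adjusted permutation p below 0.05. The 7 lower rows are strongly positive with respiratory chain and negative with smooth muscle, Coq9 reaching 0.97 and Coq6 -0.92, while Coq10b and Coq2 have no asterisk.

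CM-695 mouse 2 had the lowest respiratory chain score, 8.61, against 9.31 to 9.64 in the other CM-695 mice and 8.91 to 9.599 in vehicle mice, and the highest smooth muscle score, 10.6. Vehicle mice 2, 3 and 4 had respiratory chain scores of 8.91 to 9.14 and the other 3 of 9.55 to 9.599, so the points are not evenly spread. Without it, 10 relations passed in place of 20. Those were 6 with the respiratory chain score (Coq10a, Coq4, Coq5, Coq6, Coq7 and Coq9), 4 with the smooth muscle score (Coq4, Coq5, Coq6 and Coq9) and 0 with the brown fat score. Leaving out the 2 mice farthest from the median of each score left 11, with r = 0.95 for Coq9 and 0.87 for Coq10a against the respiratory chain score.

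**Figure D5:**
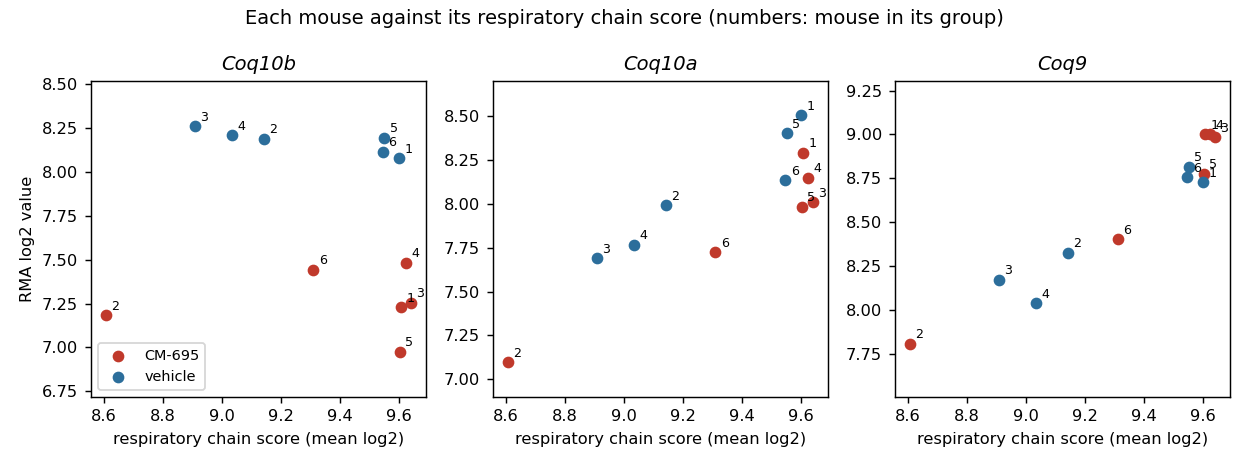
RMA log2 value of Coq10b, Coq10a and Coq9 (vertical axes, same span) against the mean log2 value of 15 respiratory chain genes in the same mouse (horizontal axis); red points are CM-695 mice, blue points vehicle mice, and numbers name the mouse in its group. Coq10a and Coq9 climb with the score in both groups. Coq10b lies in 2 bands, 1 for each group, which show the group difference that picked out the gene. The bands share only part of the score range. Vehicle mice start at 8.91, and no CM-695 mouse lies between mouse 2 at 8.61 and mouse 6 at 9.31. Within its band Coq10b had r = -0.83 with the score in vehicle mice and 0.08 in CM-695 mice.

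Of the marker lists, heart muscle had the median farthest from 0, at -1.67 log2. Its mean per mouse ran from 5.85 to 8.14 in CM-695 mice and from 7.09 to 8.89 in vehicle mice, and 12 of 13 genes had a difference below 0 (0 called, 10 with an unadjusted p under 0.05, all below 0). Of the 9 members, 0 passed with this score within groups, and Coq10b had r = -0.31 (Spearman rho = -0.18, permutation p = 0.43). With the heart muscle score as a covariate the Coq10b difference was -0.98 (SE 0.13, limma adjusted p = 0.0229), and with the brown fat score as a covariate -0.89 (SE 0.096, limma adjusted p = 0.00217), against -0.91 without a covariate. Fibroblast markers had a median of -0.53 (7 of 7 below 0), smooth muscle -0.29 (8 of 8 below 0), brown fat -0.03, skeletal muscle 0.07, endothelium 0.07, adipocytes 0.23, leukocytes 0.28, platelets 0.32 and liver 0.35, with 0 called in each list. The heart muscle score itself differed by -1.27 between the groups, so a fit with it cannot tell its part from that of CM-695. No list other than heart muscle and brown fat was fitted as a covariate. The part of these lists in the member differences was not tested.

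The genes whose pattern over all 12 arrays was most like that of Coq10b, by Pearson r and leaving out predicted genes, were Dbp at 0.95, Nfkbia at 0.95, Mfsd2a at 0.95, Usp2 at 0.93 and Mt1 at 0.93. The most opposite were Arntl at -0.95, Dhrs3 at -0.93 and Dtx4 at -0.91. Dbp encodes the D-box factor and Arntl encodes BMAL1, and they differed between the groups by -2.68 and 2.69 log2. Both they and Coq10b were selected by, or called in, the same comparison of CM-695 with vehicle. This likeness is therefore mostly the group difference itself and carries no p. The hour of collection is not stated, so its part in the differences of these genes and of Coq10b was not tested.

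After group means were subtracted, r with Coq10b fell to 0.17 for Dbp, -0.05 for Arntl and -0.03 for Mt1, and was 0.74 for Mfsd2a, a lysophospholipid transporter, 0.42 for the NF-kB inhibitor gene Nfkbia and 0.40 for the deubiquitinase gene Usp2. The highest r on those deviations, predicted genes again left out, was that of Cntnap2 at 0.94, followed by Zfp389 at 0.90, Nmnat2 at 0.90, Tradd at 0.89 and Wsb2 at 0.88, of which 0 were called between the groups. Taken as the top of so many genes with 12 mice, these values are a description.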

How the data were processed

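RNA of 12 mouse aortas (6 CM-695, 6 vehicle, grouped by sample title) was measured on 1 Affymetrix array each. The deposited log2 values are RMA output of the authors, per the submitters' processing notes, which name no version. The platform annotation gave the probe set names (1 symbol for 23521, several for 1814, none for 16010), and the brightest single-symbol probe set stood for a gene.

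All 41345 probe sets were fitted with limma 3.58.1 in R 4.3.3 (lmFit, eBayes, intercept and group), with Benjamini-Hochberg adjustment and a threshold of 0.05; the fit was tested on simulated data. Correlations used deviations from group means, with 100000 permutations within groups. The text names all members, the other synthesis genes and up to 3 genes of each other list by size of difference. Ggps1 and Mvd were added after their values were seen. Also named are the 5 highest and 3 lowest genes by likeness to Coq10b, predicted genes left out. The members and lists were chosen with earlier results of these data known. Alternatives covered pairing, filter, normalization, weights, variance prior, covariates, probe set choice and leaving out each mouse. Promoter sequences came from RefSeq.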

Additional observations from a re-analysis of the deposited data

Results flagged for a closer look

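Within groups of 6 mice, 72 sets of values were looked at for 1 mouse far from the others (gap to the nearest mouse over the whole range, against Dixon's 95% critical value), which chance alone gives in about 1 group in 20. CM-695 mouse 2 accounted for 5 of the 7 values found: Coq8a at 8.46, against 9.56 to 10.2 in the other CM-695 mice, and the means of the dehydrogenases that reduce coenzyme Q at 7.98, of complex I core at 8.61, of complex III and cytochrome c at 8.61 and of the biogenesis regulators at 6.50. These lists vary together, so they are 1 observation. CM-695 mouse 3 gave the other 2, Coq4 at 7.74, against 7.16 to 7.37, and the mean of the prenyl supply at 7.98, against 7.33 to 7.47.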

How the results depend on the processing

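Coq10b kept its fall and its call in all 21 alternatives, of which 1, the mean over all probe sets of a gene, could change nothing since each member has 1 probe set, with differences of -0.98 to -0.86 and limma adjusted p of 0.000319 to 0.048, the highest with the replicate number as a block. The replicate numbers are not stated to pair the mice. Correlations between the deviations of same-numbered mice ran from -0.10 to 0.10. Of 6 CM-695 mice, 1 was best matched by the vehicle mouse of its number. These values cannot show whether same-numbered mice were handled together. With the replicate number as a block, 15 probe sets were called in place of 64, and no call among the members changed. The number called was 116 with dim probe sets removed, 13 with the cardiac muscle score and 130 with the brown fat score as a covariate, and 22 to 98 with 1 mouse left out (98 without CM-695 mouse 2, 22 without CM-695 mouse 5). The cause was not tested. The other 8 members, and the 7 other synthesis genes, stayed uncalled throughout, and the sign of 1 member turned, Coq5, at -0.0030 without vehicle mouse 4, within a range of -0.0030 to 0.29 with 1 mouse left out. Coq10b minus Coq10a ran from -0.85 to -0.61 and the synthesis mean from 0.15 to 0.33. Of 36 relations with the scores, 20 passed; 19 passed with Spearman's rho, 11 without the 2 mice farthest from the median of the score, and 10 to 20 with 1 mouse left out, the 10 without CM-695 mouse 2. Arrays give no counts, so the number of mice limits the precision.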
